A study of Homo sapiens with 8 samples.

Results

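In control HCT-116 cells, 254 stretches of the genome held BRG1 peaks in dense clusters. BRG1 peaks that overlapped no peak of either IgG list, on chromosomes 1 to 22 and X, were joined when 12.5 kb or less lay between them. Groups of 8 or more joined peaks were kept as clusters and ranked by the sum of their total signal, the area under each peak as the authors' files give it. The clusters held 3115 of the 33596 IgG-free BRG1 control peaks (9.27%), out of 53085 BRG1 control peaks on these chromosomes and 254950 peaks over all 8 lists. The BRG1 control list thus chose the clusters, so their size, signal and place are a description of that library and carry no test.

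The study profiled chromatin by CUT&RUN, in which an antibody brings a nuclease to its target and the DNA cut free around it is sequenced, in HCT-116, a human colorectal carcinoma line. BRG1 was profiled in SETD3 knockout (KO) cells, as 2 libraries named KO1 and KO2, and in 1 library of control cells with the SETD3 control genotype. Flag-tagged wild-type actin was profiled in cells with the same 3 SETD3 labels, KO1, KO2 and control. The sample titles of the BRG1 arm name no Flag-actin construct. In each arm 1 IgG library of control cells served as background. No treatment, time or passage is given in the labels, which also leave unsaid whether KO1 and KO2 are clones, whether each library came from its own culture, or whether the IgG cells of the Flag arm, also labelled Empty, carried the Flag-actin construct.

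BRG1, encoded by SMARCA4, is the ATPase that lets SWI/SNF complexes slide and evict nucleosomes, and it works at enhancers as well as at promoters. Beta-actin is itself a subunit of these complexes, and SETD3 is the enzyme that methylates actin on a histidine. Joining nearby peaks is the usual way to find stretches where regulatory sites are packed together, which in many cell types lie at genes for transcription factors and signalling proteins of that cell type.

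Promoter sequences are shown for 3 genes whose own cluster holds a strong or well-placed peak on the start site, as 300 bases from 250 before to 50 after an annotated start, taken from RefSeq (GRCh38.p14) and written 5′ to 3′ along the gene. The first is the start inside SMAD3, the gene of the strongest cluster, at chr15:67125492-67125791 on the plus strand. Its capitals mark the single match to the AP-1 motif TGANTCA. The next is TCF7L2 at chr10:112949997-112950296 on the plus strand, whose capitals mark matches to the SP/KLF motif GGGCGG. The last is EPHA2 at chr1:16156020-16156319 on the minus strand, whose capitals mark matches to the TEAD motif GGAATG, the SP/KLF motif and the CRE motif TGACGTCA, each searched on both strands.
SMAD3 internal start: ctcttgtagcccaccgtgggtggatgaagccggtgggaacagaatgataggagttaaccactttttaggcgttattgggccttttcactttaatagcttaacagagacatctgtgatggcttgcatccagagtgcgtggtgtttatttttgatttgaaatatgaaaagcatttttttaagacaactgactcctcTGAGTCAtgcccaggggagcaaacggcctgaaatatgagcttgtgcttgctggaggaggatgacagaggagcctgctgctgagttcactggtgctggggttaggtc
TCF7L2: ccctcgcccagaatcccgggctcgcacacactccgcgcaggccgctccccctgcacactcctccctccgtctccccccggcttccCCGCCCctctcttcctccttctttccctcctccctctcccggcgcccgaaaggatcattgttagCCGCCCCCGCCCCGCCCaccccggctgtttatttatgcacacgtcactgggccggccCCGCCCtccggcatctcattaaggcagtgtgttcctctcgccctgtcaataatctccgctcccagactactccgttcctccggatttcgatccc
EPHA2: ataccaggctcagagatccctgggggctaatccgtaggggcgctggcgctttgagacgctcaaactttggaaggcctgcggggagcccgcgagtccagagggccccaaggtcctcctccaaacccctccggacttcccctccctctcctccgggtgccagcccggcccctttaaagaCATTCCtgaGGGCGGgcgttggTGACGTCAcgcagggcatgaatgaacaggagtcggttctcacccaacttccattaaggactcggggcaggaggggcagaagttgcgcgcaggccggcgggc

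The spans of 22 of the 254 clusters held at least 1 annotated miRNA hairpin. No share over the genome is given beside this count, so it is a description only. Peaks covered a median of 11.8% of a cluster, and whether a BRG1 peak lies on each hairpin is not given here. The mature miRNAs below, from RefSeq (GRCh38.p14), lie in the clusters of rank 12 (miR-21), rank 11 (let-7a and miR-100) and rank 32 (miR-23a, miR-27a and miR-24). Mature miR-21 lies at chr17:59841273-59841294 on the plus strand, inside its hairpin gene. On the minus strand lie let-7a at chr11:122146568-122146589 and miR-100 at chr11:122152275-122152296, both within MIR100HG. Also on the minus strand, within MIR23AHG, lie miR-23a at chr19:13836595-13836615, miR-27a at chr19:13836447-13836467 and miR-24 at chr19:13836289-13836310. Capitals mark the seed, bases 2 to 8, through which a miRNA pairs with its targets, and no seed is shared among the 6.
hsa-miR-21-5p: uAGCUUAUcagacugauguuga
hsa-let-7a-5p: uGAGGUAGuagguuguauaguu
hsa-miR-100-5p: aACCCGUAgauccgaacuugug
hsa-miR-23a-3p: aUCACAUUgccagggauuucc
hsa-miR-27a-3p: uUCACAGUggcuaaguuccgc
hsa-miR-24-3p: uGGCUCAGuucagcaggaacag

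The lists differed in depth as far as the files show it. Maximum signals were whole multiples of a step that was 11.5 in BRG1 KO1, 9.09 in BRG1 KO2 and 4.38 in the BRG1 control, and 9.69, 8.40 and 21.5 in Flag-actin KO1, KO2 and control. If the authors divided by depth, libraries with a larger step had fewer reads. The BRG1 KO libraries would then be the shallower ones of their arm, and the Flag-actin control the shallowest of its arm. The lowest total signal that entered a list was 6228 in BRG1 KO1, 5182 in BRG1 KO2 and 4164 in the BRG1 control. For Flag-actin it was 4650 in KO1, 5879 in KO2 and 25771 in the control. The part of depth in any difference between KO and control below was not tested, and with 1 control library per antibody no difference between KO and control has a replicate check. In a bulk assay fewer cells with BRG1 at a site and less BRG1 per cell cannot be told apart.

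A cluster held between 8 and 46 peaks, with a median of 10, over 5.43 to 115.65 kb, with a median of 29.1 kb. Together the clusters spanned 8.38 Mb, or 0.284% of the 2948 Mb between the outermost peaks of the chromosomes, and held 12.5% of the summed signal of the IgG-free peaks. Summed signal per cluster ran from 42602 to 436715, with a median of 89039. The packing was loose at the scale of bases: peaks covered a median of 11.8% of a cluster, and the median gap between neighbours was 1120 bp. Peaks inside clusters had a median total signal of 6443 and a median width of 260 bp, against 5260 and 210 bp for the other IgG-free peaks. A cluster was rarely 1 strong site, since its strongest peak held a median of 20.9% of its summed signal, from 5.61% to 52.3%. The limit of 8 peaks cut through a continuum: 57 groups had 8 peaks, with a median sum of 65349, and 76 groups just outside had 7 peaks, with a median sum of 53603. At the other end, 15481 of the 21236 joined groups were single peaks.

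**Figure D1:**
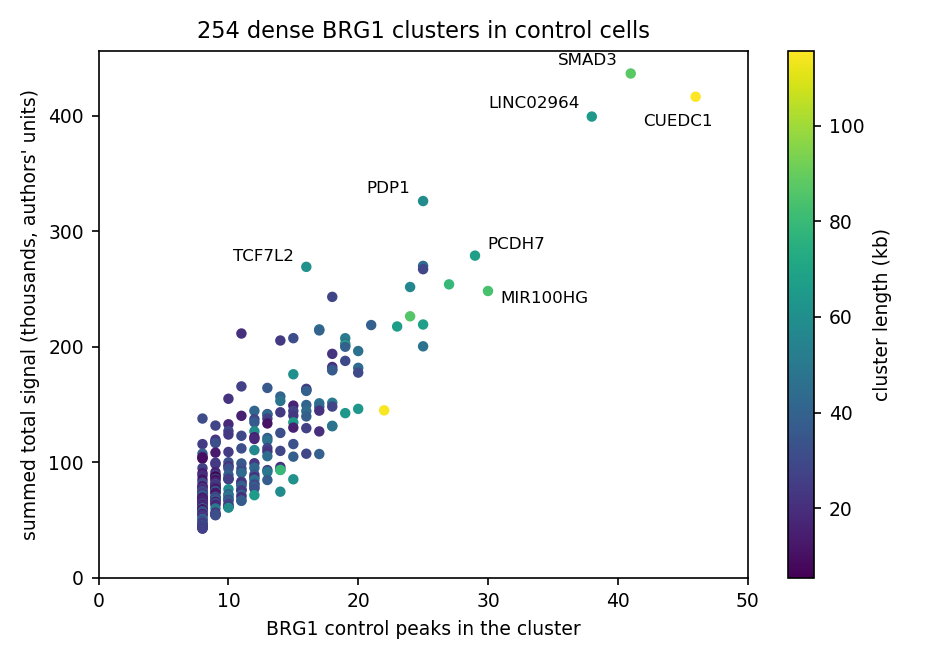
Each point is 1 of the 254 clusters, with its number of BRG1 control peaks on the x axis, its summed total signal (in the authors' units) on the y axis and its length in kb as colour. SMAD3, CUEDC1 and LINC02964 stand apart at 38 to 46 peaks, and TCF7L2 has a high sum for its 16 peaks.

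The strongest cluster lay in SMAD3, which encodes a transcription factor that carries the TGF-beta signal into the nucleus. It ran over 87.62 kb (chr15:67063181-67150800) with 41 BRG1 control peaks, none of which was left out for IgG. KO1 had 6 peaks there, KO2 14 and the control 41, and 31 of the 41 control peaks overlapped a peak in neither KO list. The strongest control peak, chr15:67148441-67150480, had a total signal of 61843 and spanned 2040 bp, while KO1 held 1 peak on it, 240 bp wide, and KO2 held 2 narrower ones. The next strongest, chr15:67124901-67126160, covered the internal start shown above with a signal of 41594, and KO1 held 1 peak on it and KO2 3. The start farthest upstream carried only a weak control peak, of signal 5829, with no KO peak on it. The Flag-actin lists had 1 peak in this cluster in KO1, 3 in KO2 and 3 in the control, and of the IgG lists the Flag arm had 1 and the BRG1 arm none. SMURF2, a ubiquitin ligase for SMADs and their receptors, had the cluster of rank 10, with 3 peaks in KO1, 9 in KO2 and 25 in the control.

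**Figure D2:**
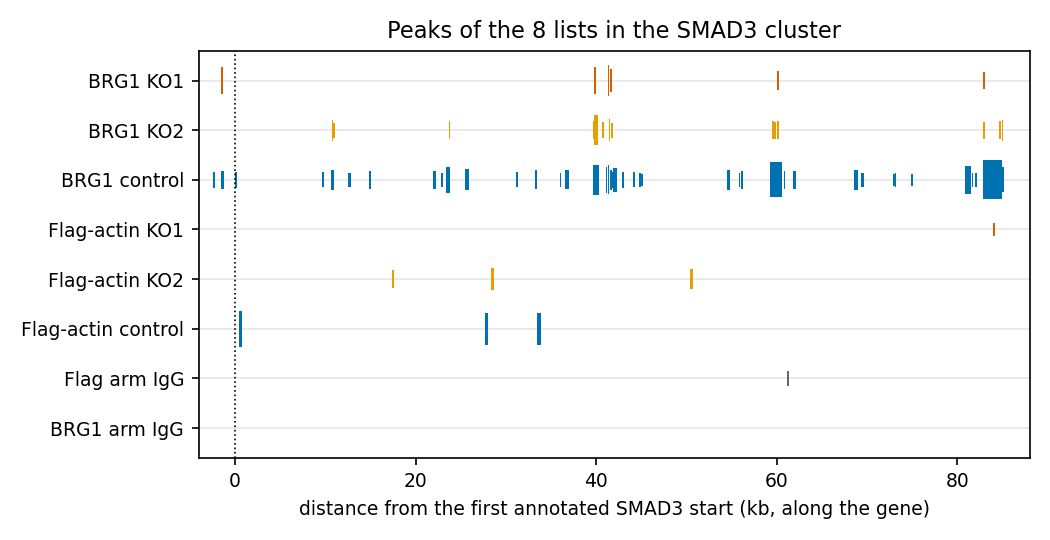
Peaks of the 8 lists in the SMAD3 cluster, by distance in kb from the first annotated SMAD3 start (dotted line); bar width is peak width and bar height grows with the logarithm of total signal. BRG1 KO1 and KO2 peaks sit mainly at the strongest control sites near 40, 60 and 84 kb, and the other lists hold between 0 and 3 peaks each.

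The second cluster lay on chromosome 17 (chr17:57850031-57965680) in CUEDC1 and in MRPS23, which encodes a protein of the mitochondrial ribosome. With 46 peaks it was the fullest of all, yet its strongest peak reached only 23361, the lowest such share of any cluster at 5.61% of the sum. KO1 had 11 peaks inside, KO2 9 and the control 47. Neither KO list held a peak on its strongest control peak. Rank 3 fell in a gene-poor stretch of chromosome 8 (chr8:125637241-125702320) within the lncRNA gene LINC02964, 198.8 kb from TRIB1, which encodes a pseudokinase that regulates protein degradation. There KO1 had 7 peaks, KO2 14 and the control 41. Its strongest site held a peak in both KO lists.

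The next ranks lay in protein-coding genes of varied function. PDP1, a phosphatase that activates pyruvate dehydrogenase, had 3 peaks in KO1, 11 in KO2 and 25 in the control. PCDH7, a protocadherin, had 5, 11 and 29 in the same order at rank 5, and NSMCE2, a SUMO ligase of the SMC5/6 complex, had 4, 7 and 25. VTI1A, a SNARE protein, had 6 in KO1, 6 in KO2 and 29 in the control. KO2 had as many peaks as KO1 in VTI1A and more in the other 3 clusters. ARHGAP18, a GTPase-activating protein for RhoA, had 5, 8 and 26 peaks in KO1, KO2 and the control, and PPP3CA, the catalytic subunit of calcineurin, had 5, 10 and 23. SYTL3 and EZR, the gene of ezrin, which ties actin filaments to the plasma membrane, shared a cluster with 3 peaks in KO1, 10 in KO2 and 24 in the control. DLGAP1, a scaffold protein gene of synapses, had 3, 10 and 17.

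TCF7L2, the main transcription factor of Wnt signalling in the colon, had clusters at ranks 7 and 30. The first (chr10:113032401-113094230) held the strongest single peak of any cluster, chr10:113087141-113087880, with a total signal of 91165. That site held a peak in both KO lists. Of its 16 member peaks, 5 overlapped a peak in both KO lists (31.25%), the highest such share among the 50 strongest clusters. The second, over the gene start shown above, had 2 peaks in KO1, 5 in KO2 and 19 in the control. The promoter peak itself, of signal 37912, was overlapped in KO2 and not in KO1. Next in this share among the same 50 clusters were a gene-free cluster near DUSP5 (28.6%), the CCAT1 cluster (26.7%), the SLC39A11 cluster at rank 37 (23.1%) and the ARHGAP26 cluster (20%).

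Several of the strongest clusters covered non-coding genes and no protein-coding gene. The cluster in MIR100HG, host of miR-100 and let-7a-2, had 5 peaks in KO1, 22 in KO2 and 30 in the control. Of those 30 control peaks, 12 were overlapped in KO2 and 18 in neither KO list. The cluster over LINC-PINT had 2, 6 and 25 peaks in KO1, KO2 and the control. The cluster at MALAT1, an abundant nuclear lncRNA, had 4, 7 and 21, that at LINC00673 had 6, 6 and 18, and that at CCAT1, a lncRNA gene first known from colon cancer, had 6, 9 and 15. A cluster beyond EZR, over LINC02901, had 2, 7 and 11. The VMP1 cluster, which contains the miR-21 gene, had 7 peaks in KO1, 8 in KO2 and 18 in the control. Its strongest peak had a signal of 79682, next to the TCF7L2 peak the highest of any cluster, and both KO lists held a peak on it. In the cluster with the miR-23a, miR-27a and miR-24-2 genes, 3 peaks lay in KO1, 9 in KO2 and 18 in the control.

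**Figure D3:**
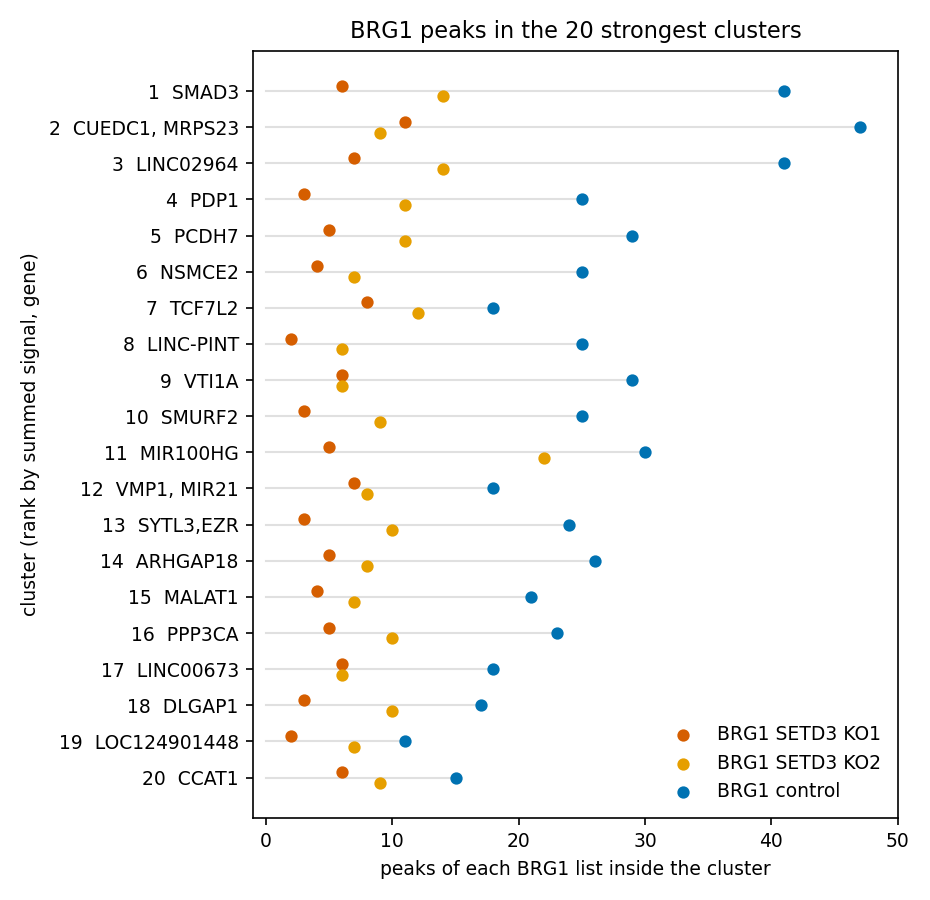
Number of BRG1 peaks inside each of the 20 strongest clusters (rows, by rank and gene) in SETD3 KO1, SETD3 KO2 and control cells. In all 20 the control list has the most peaks, and the highest KO2 count is 22, at MIR100HG.

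Over all clusters, 74.8% of the BRG1 control peaks overlapped a peak in neither KO list (2329 of 3115, 95% Wilson interval 73.2 to 76.3), against 83.1% of all IgG-free control peaks and 83.9% (83.5 to 84.3) of those outside clusters. KO1 held a peak on 11.9% of the cluster peaks (10.9 to 13.1), against 7.16% over all IgG-free peaks and 6.67% outside clusters. KO2 held a peak on 21.2% (19.8 to 22.6), against 13.7% and 12.9%. Both KO lists held one on 7.87%, against 3.89% and 3.48%. The mean of the 2 KO libraries was 16.5% ± 6.51 for cluster peaks and 9.78% ± 4.39 for the others (SD, n = 2 each), so among cluster peaks KO1 and KO2 differed from each other by more than clusters and other peaks did within either library. Cluster peaks were thus found more often in the KO lists than other peaks were, in KO1 and in KO2 alike, and the share with no KO peak was 9.16 percentage points lower in clusters (difference -9.16). Where no peaks were left out for IgG overlap this difference turned to 14.4 points higher in clusters. In that setting 7.42% of cluster peaks and 39.0% of the other peaks lay at IgG sites, and of those 17.2% and 12.3% had no KO peak.

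Most of that difference went with the strength of the control peak. Cluster peaks were strong ones, with 43.8% of them in the top 25% of IgG-free peaks by signal, against 23.0% of the other peaks. Over 4 equal classes of signal among the IgG-free peaks, from weakest to strongest, the share with no KO peak was 94.3%, 91.2%, 86.1% and 55.6% in clusters, against 95.1%, 92.8%, 86.8% and 58.0% outside. When the other peaks were weighted to the signal classes of the cluster peaks, a choice made after seeing the data, 76.4% of them had no KO peak and the difference shrank to -1.64 points. Among IgG-free peaks with a total signal of at least 10694, the strongest ones, 38.8% of the cluster peaks and 38.2% of the others had no KO peak, with intervals that overlapped (35.3 to 42.4 and 36.3 to 40.0). Peaks of 1 cluster are neighbours and not replicates, and the intervals here cover counting error only.

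**Figure D4:**
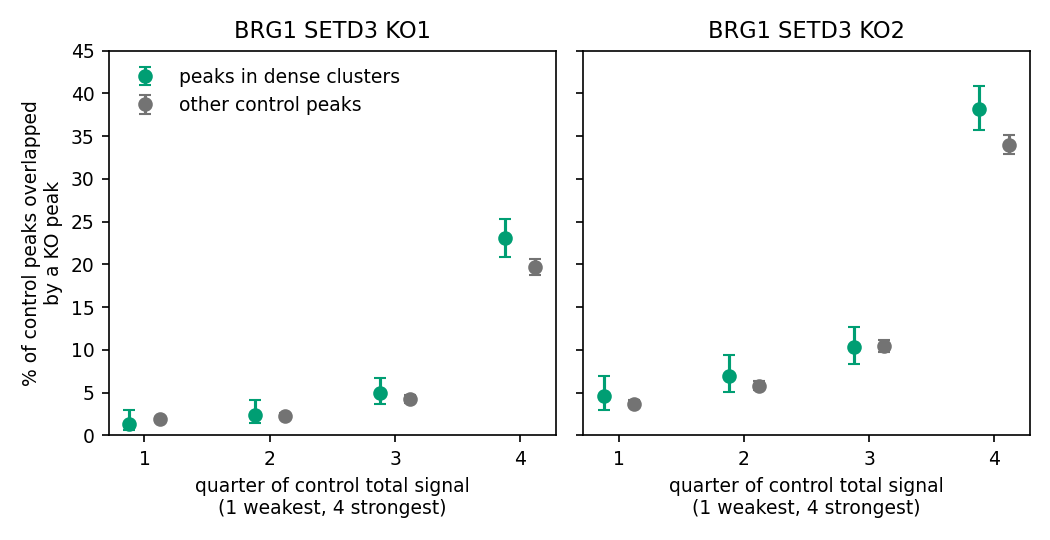
Share of BRG1 control peaks overlapped by a peak of SETD3 KO1 (left panel) or KO2 (right panel), in percent with 95% Wilson intervals, by class of control total signal (4 equal classes of IgG-free peaks), for peaks in dense clusters and other IgG-free peaks. In the strongest class 23.0% of cluster peaks and 19.7% of other peaks had a KO1 peak, and 38.2% and 34.0% had a KO2 peak, while in the lower classes the values lie close together.

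Within a cluster the strongest control peaks were overlapped by a KO peak most often. The strongest peak of each cluster was overlapped in KO1 in 44.1% of clusters and in KO2 in 63.8%, and 29.5% had no KO peak (24.3 to 35.4, 75 of 254). The second and the third strongest had no KO peak in 54.3% of cases, and the peaks of lower rank in 84.1%, close to the 83.9% outside clusters. Median signal fell along the same order, at 21213, 11681 and 5610, so rank in the cluster and strength cannot be told apart here. By number, the peaks of lower rank still gave 142 of the 372 cluster peaks overlapped in KO1 and 302 of the 659 in KO2. The share overlapped thus fell with rank, but the overlapped peaks were not confined to the strongest sites.

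Every one of the 254 clusters held fewer peaks in either KO list than in the control list. The median was 2 for KO1 and 3 for KO2, and the rule itself sets at least 8 for the control. KO2 had more peaks than KO1 in 167 clusters, fewer in 34 and the same number in 53. The whole KO2 list was also longer, with 31871 peaks, against 23651 in KO1. In 75 clusters no control peak was overlapped in KO1, in 29 none was in KO2, and in 21 none was in either. At least 50% of the control peaks were overlapped in only 2 clusters for KO1 and 9 for KO2. Among the 50 strongest clusters 1 had no control peak overlapped in either KO list. It was the second of 5 clusters along PCDH7 by signal (chr4:31018271-31068990), with 18 control peaks, of which the strongest had a total signal of 24676. A cluster near KRR1 on chromosome 12, at rank 25 and picked out after its values were seen, came close, with 24 of its 25 control peaks in neither list. Weaker clusters with no overlap, also picked out from their values, included both TNIK clusters, with 16 and 8 control peaks and no peak of KO1 or KO2 inside.

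The same joining rule run on the other lists found few such stretches in KO cells. It gave 1 cluster in BRG1 KO1 (from 6789 IgG-free peaks) and 16 in BRG1 KO2 (from 12782), against 254 in the control (from 33596), and the number of peaks alone changes how many groups reach 8. The single KO1 cluster lay at AURKB, the gene of the mitotic kinase Aurora B, outside every control cluster. Of the 16 KO2 clusters, 15 overlapped a control cluster (93.75%), and these met 16 of the 254 control clusters (6.30%). They lay at MIR100HG, which was the strongest in KO2 with 22 peaks, 2 at or near TRIB1, near DUSP5, in TCF7L2, PLEC, VMP1, MYOF, LMNA, DLGAP1, PCDH7 and FOSB, and at the CCAT1, miR-23a and IRS1 regions. The KO2 cluster outside them covered NDRG4 and SETD6 with 8 peaks in 3.96 kb.

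Peaks of each list, those at IgG sites included, were counted by their midpoint inside the 8.38 Mb of clusters. BRG1 KO1 had 533 and BRG1 KO2 977, against 3202 in the BRG1 control, or 63.6, 117 and 382 peaks per Mb. Over the whole chromosomes the same lists had 8.02, 10.8 and 18.0 peaks per Mb. The stretches that were dense in the control were thus also denser than the genome in both KO lists, by a factor of 7.93 in KO1 and 10.8 in KO2. These factors depend on peaks at IgG sites, which the clusters were built without. Only 6789 of the 23651 KO1 peaks and 12782 of the 31871 KO2 peaks were IgG-free. Of the IgG-free peaks of each list, KO1 had 7.07% in the clusters and KO2 had 7.17%, in 0.284% of the span. The control had 9.27%, the share that the rule itself set. The IgG lists, whose peaks the rule kept out of the count but not out of the span, had 89 peaks (10.6 per Mb, against 6.84 over the chromosomes) in the Flag arm and 95 (11.3 against 8.33) in the BRG1 arm.

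Flag-actin peaks were also denser in the clusters than over the chromosomes. KO1 had 188 peaks inside (22.4 per Mb, against 9.19 over the chromosomes), KO2 313 (37.35 against 12.1) and the control 491 (58.6 against 13.2, Poisson interval 53.5 to 64.0). They did not sit on the BRG1 peaks more than elsewhere: 3.79% of cluster peaks overlapped a Flag-actin control peak, against 3.88% of all IgG-free BRG1 peaks and 3.89% of those outside clusters. For Flag-actin KO1 the shares were 1.16% in clusters, 2.26% over all and 2.37% outside, and for KO2 2.31%, 3.4% and 3.51%. In Flag-actin KO1 and KO2 the overlap was lower in clusters than outside (intervals 0.836 to 1.60 and 2.21 to 2.55 in KO1, 1.84 to 2.90 and 3.31 to 3.72 in KO2). These intervals cover counting error only and treat neighbouring peaks as independent, so they are no test of the difference. Flag-actin control peaks lay unevenly, and 139 of the 254 clusters held at least 1 Flag-actin control peak.

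The clusters with most Flag-actin peaks were not among the strongest for BRG1. CCDC57, SLC16A3 (a lactate transporter) and CSNK1D (casein kinase 1 delta) shared a cluster with 10 Flag-actin peaks in KO1, 14 in KO2 and 23 in the control. ACSF3, CDH15 and SLC22A31 had 8, 11 and 23. The cluster at TONSL had 1 in KO1, 8 in KO2 and 18 in the control. Their BRG1 ranks were 51, 119 and 159. Under the same joining rule the Flag-actin control list had 234 clusters of its own, of which 19 overlapped a BRG1 cluster (8.12%), meeting 21 BRG1 clusters (8.27%). The density of Flag-actin control peaks in BRG1 clusters was 40.4 per Mb without chromosomes 8, 10 and 17, an alternative chosen after seeing the data. The density over the remaining chromosomes is not given beside it.

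**Figure D5:**
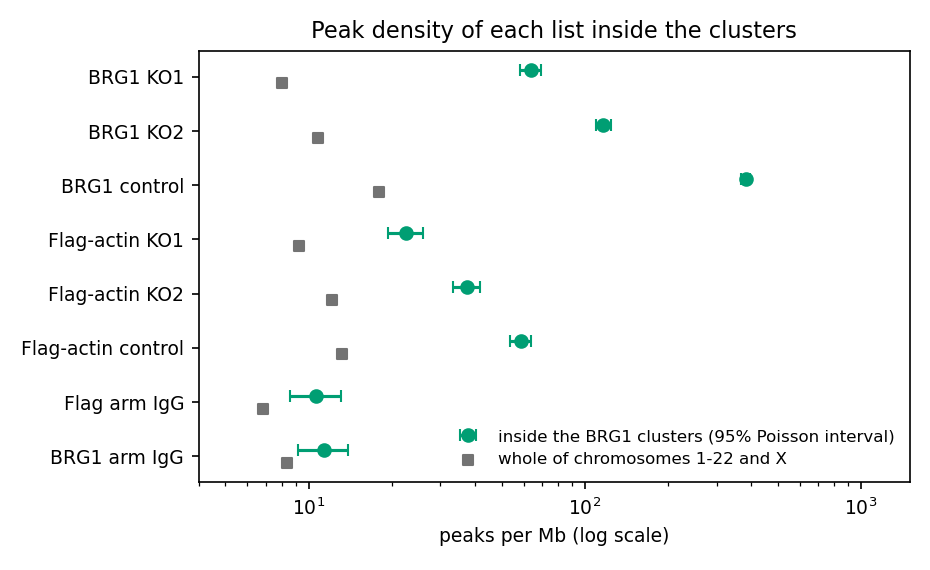
Peaks per Mb (log scale) of each of the 8 lists, IgG sites included, inside the BRG1 clusters, with 95% Poisson intervals, and over the whole of chromosomes 1 to 22 and X. BRG1 lists lie farthest from their genome level, at 63.6, 117 and 382 per Mb in KO1, KO2 and control, and the IgG lists closest, at 10.6 and 11.3.

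Clusters were unevenly spread over the chromosomes. Chromosome 17 held 37, or 44.5 per 100 Mb, against 8.62 over all, and chromosome 19 held 15 (25.8 per 100 Mb). Chromosome X held none, with 335 IgG-free BRG1 peaks (2.15 per Mb, against 11.4 over all). Chromosome 1 held 30, against 23 on chromosome 8 and 22 on chromosome 10. Chromosomes 8, 10 and 17, grouped after the data were seen, together held 82 clusters (32.3%) in 12.3% of the span, with 19.4% of the IgG-free BRG1 peaks. Of all its peaks, the IgG list of the Flag arm had 14.5% there and that of the BRG1 arm 12.9%. BRG1 KO1 had 14.1%, BRG1 KO2 15.1% and the Flag-actin control 20.1%, so the share there was also above that of the span in other lists. On those 3 chromosomes 73.0% of cluster peaks had no KO peak, against 75.6% on the others.

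Clusters also lay close to other clusters. Joined when 1 Mb or less apart, they formed 162 groups, of which 108 were single clusters and 54 held the other 146. The largest was a run of 8 clusters on chromosome 8 (chr8:125110941-125702320), from NSMCE2 past TRIB1 to LINC02964, with 26 peaks in KO1, 54 in KO2 and 143 in the control. The 5 clusters of PCDH7 spanned 363.5 kb (chr4:30743891-31107420) with 8, 23 and 97 peaks, and 83.5% of their control peaks had no KO peak. PCDH7 and NSMCE2, with 4 clusters, were the genes covered most often, and 9 other genes, among them TCF7L2, HMGA2, EZR and TNIK, overlapped 2 each. In position, 11.2% of cluster peaks lay within 1 kb of an end of a protein-coding gene, against 20.7% of the others, and 50.2% lay elsewhere in such a gene, against 44.8%. A further 14.0% lay only in a lncRNA gene, against 8.63%, and 24.6% in neither kind, against 25.9%. Cluster peaks were thus placed away from gene ends more often than other peaks. At gene ends, KO1 held a peak on 7.18% and KO2 on 25.6% of cluster peaks, against 6.03% and 18.3% of the others.

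Of the clusters, 199 overlapped a protein-coding gene, 143 of them exactly 1, and 55 overlapped none. The gene-free clusters lay a median of 55.4 kb from the nearest protein-coding gene, and 36 of them covered a lncRNA gene. In all, 291 of 19974 protein-coding genes overlapped a cluster (1.46%), and 3.22% of the 9032 that held any IgG-free BRG1 peak. Among 14 gene lists with 330 genes, 32 genes (9.70%) overlapped a cluster. The lists were drawn up with earlier results of these data known, so their shares describe these genes and support nothing further.

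AP-1 factors, leucine-zipper proteins that switch on genes after growth signals, had 5 of 14 genes in a cluster (FOS, FOSB, FOSL1, JUNB and JUND). JUND had 1 BRG1 peak in KO1, 5 in KO2 and 14 in the control across its cluster, and FOSL1 had 2, 4 and 11. FOSB had 2, 3 and 10, and JUNB had 1, 3 and 11. All 5 clusters ranked at 122 or lower, and the 4 with these values also covered further protein-coding genes, so their peaks cannot be ascribed to the AP-1 gene alone. Genes of ERK feedback and the immediate early response had 4 of 23: IER2, DUSP5, ERRFI1 and IER5. ERRFI1, an inhibitor of the EGF receptor, lay in a run of 4 clusters with 7 peaks in KO1, 20 in KO2 and 51 in the control. DUSP5, a phosphatase of ERK, had 0, 4 and 16 peaks in its own cluster, while the gene-free cluster beside it had 7, 13 and 14, nearly as many in KO2 as in the control. Of those 14 control peaks, however, 7 were overlapped in KO2 and 7 in neither KO list. The EGFR family list had 1 of 13, EPHA2, an ephrin receptor, with 3 peaks in KO1, 7 in KO2 and 16 in the control, and a promoter peak of signal 6399 overlapped in KO2 alone.

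In the TGF-beta list 3 of 19 genes overlapped a cluster: SMAD3 and the inhibitors of differentiation ID1 and ID3. ID1 had 3 peaks in KO1, 5 in KO2 and 14 in the control, and ID3 had 0, 1 and 9. The Wnt list had 2 of 23, TCF7L2 and the Wnt antagonist gene DKK1, whose cluster had 1, 1 and 9 peaks. The YAP list had 2 of 17, WWTR1 (the coactivator TAZ) with 2, 4 and 11 peaks and TEAD1, its DNA-binding partner, with 2, 5 and 14. Intestinal and epithelial transcription factors had 1 of 25, ELF3, with 2, 4 and 13. As in all 254 clusters, which were chosen on control peaks, the control had the most BRG1 peaks in each.

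In the lists of epithelial structure a few genes overlapped a cluster. Keratins and junctions had 4 of 28, with KRT80 (4 peaks in KO1, 6 in KO2 and 11 in the control), the tight junction gene CLDN4 (1, 5 and 10), KRT19 (1, 3 and 10) and JUP, the gene of plakoglobin (2, 2 and 9). Integrins and focal adhesion genes had 2 of 27, the actin crosslinker gene ACTN4 (4, 5 and 18) and the integrin gene ITGA3 (3, 6 and 11). Actins and their regulators had 4 of 39, EZR, the myosin gene MYO1E (1, 6 and 11), LIMA1 (3, 3 and 10) and ACTG1, the gene of gamma-actin (0, 2 and 9). The ACTG1 cluster also held 3 Flag-actin peaks in KO1, 3 in KO2 and 7 in the control. Translation genes had 3 of 31, EEF1G (2, 5 and 9), RPL3 (2, 1 and 12) and RPL13 (0, 2 and 9), and p53 targets had 1 of 18, PLK3 (2, 2 and 11). Of the 25 extracellular matrix genes and the 28 SWI/SNF subunit genes none overlapped a cluster. In each of these 2 lists 19 genes held an IgG-free BRG1 peak, and at the 3.22% of all such genes that overlapped a cluster a count of 0 is near the background. Such a peak was present at 24 integrin and focal adhesion genes, 17 intestinal and epithelial factors and 10 p53 targets. Their counts of 2, 1 and 1 in a cluster are likewise too small to set apart from that share.

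Marker genes in these clusters gave no firm check of the cell type label. Of 10 markers of colorectal epithelium, 2 (ELF3 and KRT19) overlapped a cluster, and of 9 fibroblast, 8 immune, 7 neuron and 6 hepatocyte markers none did, against 1.46% of all protein-coding genes. An IgG-free BRG1 peak anywhere in the gene was present at 6 of the 10 epithelial markers, 2 of the fibroblast, 1 of the immune, 4 of the neuron and 2 of the hepatocyte markers, against 45.2% of all protein-coding genes.

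Promoter windows on chromosomes other than 8 were searched for 6 motifs, with both strands read, and a window could count for several motifs. Cluster peaks lay on 144 windows of 121 genes, other IgG-free BRG1 peaks on 4493 windows, and 22132 windows of 15812 genes were searched in all. The AP-1 motif TGANTCA was present in 11.8% of the cluster windows (17 of 144, interval 7.50 to 18.1), against 4.92% of windows with another BRG1 peak and 6.15% of all. The SMAD3 window shown above is 1 of these 17. The TEAD motif was present in 14.6%, against 10.3% and 12.2%, and the ETS motif CCGGAA in 22.2%, against 31.6% and 21.2%. The SP/KLF motif was present in 75%, against 76.6% and 56.3%. The CRE motif was present in 2.08%, against 3.20% and 2.26%, and the TCF/LEF motif ATCAAAG in 0.694% (1 of 144), against 1.20% and 1.99%. GC content averaged 66.0% ± 8.04 in cluster windows, 65.2% ± 8.32 in windows with another peak and 61.0% ± 12.2 in all (SD over windows). The AP-1 interval lay above the share of both comparison sets, and the ETS interval (16.2 to 29.7) lay below the share of windows with another BRG1 peak. For TEAD, SP/KLF, CRE and TCF/LEF the interval held that share. The 144 windows came from 121 genes and some of them overlap, such as those of SFXN3 and PDZD7. They are therefore not independent, the intervals are likely too narrow, and no difference in motif share was tested. A match says that these letters occur in the window and not that a factor binds there.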

How the data were processed

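The data are 8 peak lists, 1 per CUT&RUN library of HCT-116 cells, made with a commercial CUT&RUN library kit per the labels' protocols. The submitters' processing notes name build hg38 and, without order or settings, the peak callers SEACR and MACS2, the aligner BWA, bedtools 2.30.0, SAMtools, Trim Galore 0.4.5, deepTools and FastQC 0.12.0. Each deposited list has 6 columns, as SEACR writes them, among them a peak's total and maximum signal. The authors' list names give cutoffs of 0.01 (antibodies) and 0.005 (IgG), which in SEACR keep a top fraction of signal blocks, so that peak numbers do not measure binding. The normalisation behind the authors' signal values is not given in sources used here. Total signal was therefore used to rank and sum peaks within a list.

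Peaks off chromosomes 1 to 22 and X were left out (2.45% to 4.72% of each list). Cluster peaks were called overlapped at 1 bp or more. Python 3.11.15 with numpy 2.4.6, pandas 2.3.3 and scipy 1.17.1 was used. On 5500 simulated intervals the overlap functions gave the same calls as bedtools 2.31.1 (0 differed). Genes, promoter windows and miRNAs came from RefSeq tables of GRCh38.p14, the same build as hg38. The gene table gives no strand or exons, so gene ends stand in for starts and no peak was placed in an exon, intron or UTR. Promoter sequence of chromosome 8 was not used here. Shares have 95% Wilson intervals and densities exact Poisson intervals, for counting error only.

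The members and gene lists were chosen with earlier results of these data known. Genes named were those of the 20 strongest clusters, the 5 with most peaks, those among the 50 strongest with the highest share kept in both KO lists (5) or with no KO overlap (5 at most), and up to 4 per gene list by cluster rank. With 1 control library per antibody no test was run. Alternatives were the joining distance, the minimum number of peaks, the IgG filter, the overlap rule, list length and each KO library left out.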

Additional observations from a re-analysis of the deposited data

Results flagged for a closer look

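In 13 of the 254 clusters both Flag-actin lists of KO cells had more peaks than the control list, in 80 both had fewer and in 161 neither held. The BRG1 lists had fewer peaks in KO1 and KO2 than in the control in these 13, as in all 254 clusters. The clusters were chosen on BRG1 control peaks, so the opposite direction in the 13 carries no information beyond their Flag-actin counts. The cluster over LINC02964, near TRIB1, had 1 Flag-actin peak in KO1, 3 in KO2 and 0 in the control, a difference of 2.0 between the KO mean and the control, and BCL9L had 2, 2 and 0, also 2.0. The ARHGAP18 and MTHFD1L clusters had 1, 2 and 0 each, SHB had 2, 1 and 0, LOC124900275 had 3, 2 and 1, and the cluster near ACTB had 2, 3 and 1, a difference of 1.5 in each. The difference was 1.0 at ELF3, at AHNAK and EEF1G, at SYBU and in a cluster near ERRFI1, with 1, 1 and 0 peaks each, in the NSMCE2 cluster of rank 31 with 3, 3 and 2, and at DHRS3 with 2, 2 and 1. These clusters were picked out by their counts, the differences were not tested and the counts are small. The IgG lists had 2 peaks (Flag arm) and 4 (BRG1 arm) in the LINC02964 cluster, and 0 and 1 in the ARHGAP18 and SYBU clusters. In the same order they had 1 and 2 in the NSMCE2 cluster of rank 31 and in the cluster near ACTB. At LOC124900275 and DHRS3 they had 1 and 1, and in the other flagged clusters none.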

How the results depend on the processing

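The number of clusters, 254 as reported, was 102 and 468 at joining distances of 5 and 25 kb, 498 and 101 with at least 6 and at least 12 peaks, and 100 when only peaks of at least the median signal were used. The share of cluster peaks in neither KO list (74.8%) was 76.7% at 25 kb, 70.4% without the IgG filter, 66.2% for peaks of at least the median signal, 85.5% when 50% of the control peak had to be covered, 60.2% with a KO peak within 500 bp and 62.3% with the lists shortened to the shortest. It was 78.8% to 88.1% with 1 KO library left out. Its difference from other peaks (-9.16 points) was -6.73 for peaks of at least the median signal, -4.82 at 50% cover, -18.1 within 500 bp, -4.32 with shortened lists, -8.27 to -5.27 with 1 KO library left out and -1.64 after weighting by signal. Without the IgG filter it was 14.4. Flag-actin control peaks per Mb in clusters (58.6) were 39.5 and 69.6 at 5 and 25 kb, 71.9 without the IgG filter, 35.6 for peaks of at least the median signal, 52.1 when Flag-actin peaks at IgG sites were left out and 40.4 without chromosomes 8, 10 and 17. The share of genes in a cluster (1.46%) was 0.315% and 5.18% at 5 and 25 kb, 2.88% and 0.501% with at least 6 and 12 peaks, 2.04% without the IgG filter, 0.355% for peaks of at least the median signal and 1.09% for genes with an end within 1 kb of a cluster peak. The cause of these shifts was not tested. The weighting and the omission of chromosomes were chosen after seeing the data. No paired analysis was possible because each antibody had 1 control library, and no test was run. A missing KO peak is not detectable binding at the depth of that list, which the files do not state, and not an absence of BRG1.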
